A study of Mus musculus with 6 samples.

Results

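Ly6a, Ly6c1, Ly6c2, Ly6e, Ly6d and Ly6g, 6 genes of the Ly6 surface protein family, were followed among the 28773 genes of the deposited tables. The genes were chosen by name, and each symbol matched 1 Ensembl identifier. RNA was sequenced from CD8+ T cells that had been isolated from mouse spleens with a magnetic kit on day 35 after tumor inoculation. All animals carried a tumor that was destroyed by microwave ablation (MWA). The 3 MWA+PBS samples (replicates 1 to 3) came from mice given the PBS vehicle after ablation. The 3 MWA+2DG samples (replicates 4 to 6) came from mice given 2-deoxy-D-glucose (2DG), a glucose analogue that blocks glycolysis, on the same schedule. By the paper's methods the injections ended before day 35, so the cells were taken after dosing had stopped. The study used female wild-type mice of 6 weeks, BALB/c or C57BL/6 depending on the tumor line, and the labels do not say which strain gave these libraries or whether each library came from a separate mouse. The p-values below therefore measure the spread between these samples only. Values are FPKM, fragments per length of transcript and per mapped fragment of the library, so levels can be compared between genes. The comparison asked how 2DG after ablation changed the transcripts of these surface proteins.

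Ly6 proteins are small, cysteine-rich proteins held on the outer face of the plasma membrane by a glycosylphosphatidylinositol (GPI) anchor. Immunologists know them mainly as markers. Ly6a encodes Sca-1, which rises on T cells on activation and after interferon. Ly6c1 and Ly6c2 encode the closely similar forms of the Ly6C antigen, carried by memory CD8+ T cells and by inflammatory monocytes. Ly6e is an interferon-inducible gene of thymocytes and many other cells, Ly6d marks early B lineage cells, and Ly6g encodes the antigen used to identify mouse neutrophils.

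In these libraries 3 of the 6 members were higher in MWA+2DG (Ly6a, Ly6c2 and Ly6g) and 1 was lower (Ly6e). Ly6c1 and Ly6d did not pass the test. When libraries were scaled to Cd8a, Ly6c2 was called lower, at -0.25, as were 86.4% of all genes tested (median -0.61). The test was limma on log2(FPKM + 1) over the 12444 genes with a mean FPKM of at least 1, called at a Benjamini-Hochberg adjusted p under 0.05. Over all genes tested, 39.4% were called, 22.3% higher and 17.1% lower. All 6 members passed the filter on low values, Ly6g only through the MWA+2DG samples, so Ly6g could only be higher. The members' median log2 fold change was 0.32 and that of all genes tested was 0.05. The groups did not overlap for 4 members, against 52.1% of all genes tested. In bulk RNA, fewer cells of a type and less RNA per cell cannot be told apart.

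**Figure D1:**
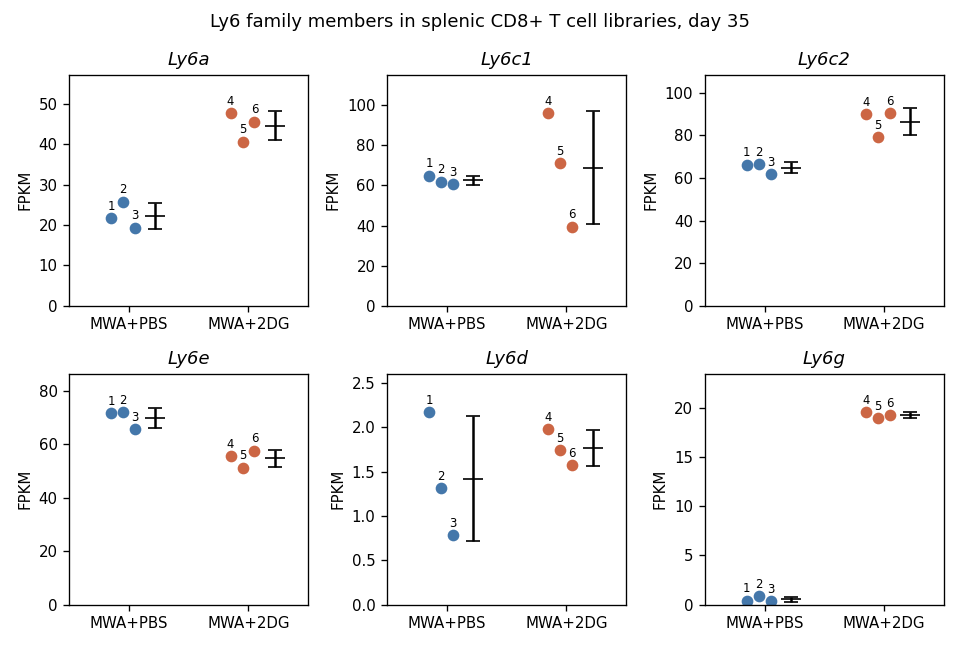
FPKM of each member in each sample, with the replicate number above each point and the group mean ± SD (n = 3) beside the points; every axis starts at 0. Ly6a, Ly6c2 and Ly6g were higher in every MWA+2DG sample, Ly6e was lower in every MWA+2DG sample, and the MWA+2DG samples of Ly6c1 ran from 39.48 to 95.99.

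Markers of several other spleen cell types were detected in both groups and differed between them. From 22414 to 23340 genes were above 0 in a sample, and FPKM summed to 291803 to 313257. Of the T lineage list, 18 of 24 genes rose and 1 fell (median 0.38), and Cd8a, the CD8 alpha chain, went from 225.8 to 239.27 FPKM in MWA+PBS to 358.98 to 377.07 in MWA+2DG. Scaled to Cd8a itself, 0 T lineage genes rose and 15 fell (median -0.28), and of all genes tested 1.48% rose and 86.4% fell. The summed FPKM of 20 neutrophil genes went from 380.5 to 420.87 in MWA+PBS to 1675 to 1861 in MWA+2DG. That of 15 red pulp macrophage genes went from 943.21 to 1014 down to 138.33 to 146.77, and that of 14 monocyte genes from 501.77 to 522.25 down to 368.88 to 405.16. The sum of 19 B cell genes also went down, from 870.97 to 956.25 to 493.73 to 543.21, but this was Ighm, the IgM heavy chain. The sum of the other 18 genes went up, from 42.4 to 46.4 to 122.06 to 132.52, although Bank1 among them fell. The endothelial list was near 0 apart from Pecam1, which leukocytes also carry, and Stab2, with 13 of 15 genes under 1 FPKM in every sample. The values of each list that moves with a member are given beside that member. Each list count without scaling stands against 22.3% higher and 17.1% lower over all genes tested.

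Ly6a (ENSMUSG00000075602) was higher in MWA+2DG under every scaling tried, by an amount that depended on the scaling. The MWA+PBS samples read 21.67, 25.77 and 19.35 FPKM, and the MWA+2DG samples 47.63, 40.60 and 45.53. The samples given 2DG were all above those given PBS, and the gap between the groups was wider than the range within either. The means were 22.3 ± 3.25 and 44.6 ± 3.61 FPKM (SD, n = 3), a ratio of 2.00. The log2 fold change was 0.98 (SE 0.11, 95% interval 0.73 to 1.23, limma adjusted p = 0.000371), which ranked 166 among the increases of all genes tested. It was 0.65 when scaled to the T lineage genes (adjusted p = 0.000796) and 0.32 when scaled to Cd8a (adjusted p = 0.0115). Within a sample, Ly6a stood at or above 82.2% to 86.8% of the tested genes with PBS and 92.6% to 94.0% with 2DG.

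Ly6c1 and Ly6c2 lie near each other on chromosome 15, and over their 393 coding bases the GRCm38 reference sequences shared 384, an identity of 97.7%. Their coding exon 1 is shown because it holds most of the coding bases at which they differ. In these lines, written 5′ to 3′ on the coding strand, capitals mark bases that differ from Ly6c1 at the same position. The Ly6a and Ly6g exons are added for comparison.
Ly6c1: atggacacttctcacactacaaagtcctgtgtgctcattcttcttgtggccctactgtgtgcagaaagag
Ly6c2: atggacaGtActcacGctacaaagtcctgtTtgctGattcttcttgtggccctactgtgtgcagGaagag
Ly6a: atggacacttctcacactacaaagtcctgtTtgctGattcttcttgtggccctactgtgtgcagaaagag
Ly6g: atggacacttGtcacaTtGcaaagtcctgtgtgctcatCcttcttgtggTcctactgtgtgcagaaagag
The 4 exons are 70 bases each and lie at chr15:75048442-75048511 (minus strand) for Ly6c1, chr15:75111598-75111667 (minus) for Ly6c2, chr15:74997535-74997604 (minus) for Ly6a and chr15:75155645-75155714 (plus) for Ly6g, in GENCODE M21 transcripts. Ly6c2 differed from Ly6c1 at 6 positions there, Ly6a at 2 and Ly6g at 5. In coding exon 2, shown because Ly6c1 and Ly6c2 are identical there, Ly6a and Ly6g stood far from both.
Ly6c1: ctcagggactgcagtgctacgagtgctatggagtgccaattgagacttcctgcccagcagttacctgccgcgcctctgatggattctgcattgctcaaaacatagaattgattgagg
Ly6c2: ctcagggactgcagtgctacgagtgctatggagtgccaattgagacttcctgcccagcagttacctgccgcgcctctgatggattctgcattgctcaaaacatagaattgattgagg
Ly6a: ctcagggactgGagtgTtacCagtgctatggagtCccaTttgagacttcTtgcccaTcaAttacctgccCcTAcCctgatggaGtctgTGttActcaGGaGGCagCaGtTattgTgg
Ly6g: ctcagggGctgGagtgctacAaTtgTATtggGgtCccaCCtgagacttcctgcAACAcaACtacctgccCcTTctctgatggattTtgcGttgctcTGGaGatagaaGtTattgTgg
These exons of 117 bases lie at chr15:75047353-75047469, chr15:75110511-75110627 and chr15:74996452-74996568 on the minus strand and at chr15:75156694-75156810 on the plus strand. Ly6c2 had 0 differences from Ly6c1 in exon 2, Ly6a had 25 and Ly6g had 29. Of all stretches of 150 bases in the Ly6c1 transcript, 5.61% were found unchanged in Ly6c2, and 36.7% of stretches of 50 bases were found unchanged in Ly6c2 or Ly6a. Stretches of 150 bases from Ly6a, Ly6e, Ly6d and Ly6g were found in 0 transcripts of other genes. The values of Ly6c1 and Ly6c2 are uncertain to the extent that reads were split between them, and the sources used here do not state how shared reads were assigned. The reference is from C57BL/6J mice, and animals of another strain may carry other bases.

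Ly6c2 (ENSMUSG00000022584) read 66.20, 66.60 and 61.76 FPKM in the MWA+PBS samples and 90.08, 79.09 and 90.39 in the MWA+2DG samples. All MWA+2DG samples were above all MWA+PBS samples. The means were 64.9 ± 2.69 and 86.5 ± 6.44 FPKM (n = 3), a ratio of 1.33, and the log2 fold change was 0.41 (SE 0.07, limma adjusted p = 0.00285). This increase was smaller than that of Cd8a in the same fit, 0.66 (adjusted p = 8.94e-05), and its direction turned when the libraries were scaled to Cd8a, as described below.

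Ly6c1 (ENSMUSG00000079018) varied more between the MWA+2DG replicates than any other member on the log2(FPKM + 1) scale, and less than any other between the MWA+PBS replicates. The MWA+PBS samples lay close together, at 64.95, 61.84 and 60.77 FPKM, and the MWA+2DG samples far apart, at 95.99, 71.16 and 39.48. Replicates 4 and 5 were above the MWA+PBS samples and replicate 6 was below all of them, so the groups overlapped. The log2 fold change was 0.05 (95% interval -0.59 to 0.69, limma adjusted p = 0.905), an interval that holds both the increase of Ly6c2 and a fall of the same size. The SD of log2(FPKM + 1) in MWA+2DG was 0.64, larger than in 99.3% of the tested genes, whereas in MWA+PBS it was 0.05, larger than in 16.6%. Without replicate 6 the log2 fold change was 0.40 (limma adjusted p = 0.0506). It turned to -0.23 without replicate 4 (adjusted p = 0.457) and to -0.02 without replicate 5 (adjusted p = 0.97).

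The balance within this pair moved with the same library. Ly6c1 made up 49.5%, 48.1% and 49.6% of the summed Ly6c1 and Ly6c2 FPKM in MWA+PBS. In MWA+2DG it made up 51.6%, 47.4% and 30.4%, and replicate 6 was the only sample far from an even split. The difference between the group means was -5.97 percentage points (exact permutation p = 0.6, two-sided, where the smallest p possible is 0.1), and without replicate 6 it was 0.39 points. Ly6c2 in replicate 6, at 90.39 FPKM, was close to replicate 4, at 90.08. The summed level of both went from 127.4 ± 4.41 FPKM to 155.4 ± 28.5 with 2DG (exact permutation p = 0.2).

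**Figure D2:**
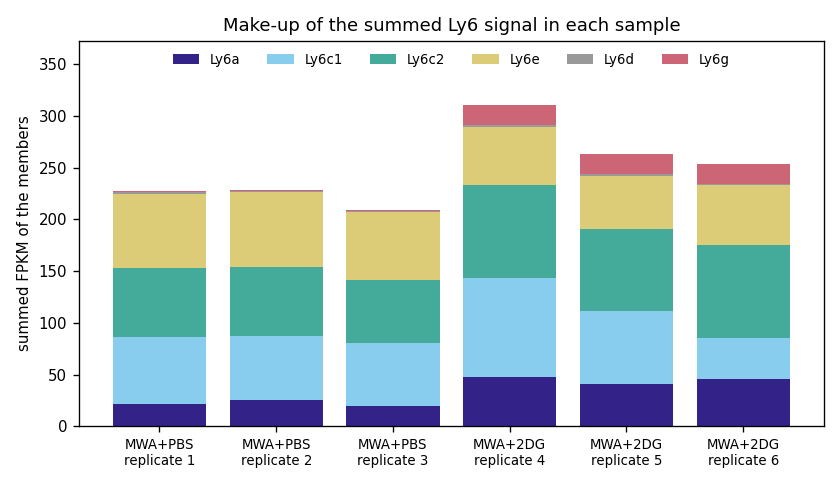
Stacked bars of the FPKM of the 6 members in each sample, in FPKM from 0, with replicates 1 to 3 from MWA+PBS and 4 to 6 from MWA+2DG. The Ly6c1 share of the bar was smallest in replicate 6, and the Ly6g share was visible only in the MWA+2DG bars.

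Ly6e (ENSMUSG00000022587) was the only member that fell. MWA+PBS gave 71.86, 72.14 and 65.64 FPKM and MWA+2DG gave 55.54, 51.29 and 57.70, and the lowest MWA+PBS sample was above the highest MWA+2DG sample. The means were 69.9 ± 3.67 and 54.8 ± 3.26 FPKM (n = 3). The log2 fold change was -0.34 (SE 0.07, limma adjusted p = 0.00507). Its coding sequence was far from those of the Ly6a, Ly6c and Ly6g genes, with 49.5% to 52.7% of aligned positions identical, where those genes shared 78.1% to 97.7% with each other. Ly6d was as distant, at between 49.3% and 51.2% from the other members.

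Ly6d (ENSMUSG00000034634) was low in every sample. MWA+PBS gave 2.17, 1.31 and 0.78 FPKM and MWA+2DG gave 1.98, 1.74 and 1.57. All MWA+2DG samples lay within the range of the MWA+PBS samples. The log2 fold change was 0.23 (95% interval -0.23 to 0.69, limma adjusted p = 0.395). B cell markers moved between the groups while Ly6d did not pass the test. Of 17 B cell genes tested, 14 rose and 2 fell (median 1.64), although 7 of the 17 had a mean under 1 FPKM with PBS and passed the filter only through MWA+2DG. Among these 7 was Fcmr, the receptor for the IgM constant region, from between 0.24 and 0.41 FPKM to between 8.40 and 10.46. Ighm fell by 1.15 on the log2 scale and held most of the summed FPKM of the list, at 828.57 to 912.7 with PBS and 371.67 to 410.69 with 2DG.

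Ly6g (ENSMUSG00000022582) showed the largest change of the family. MWA+PBS gave 0.41, 0.83 and 0.37 FPKM and MWA+2DG gave 19.57, 18.96 and 19.29. The transcript was near 0 in every MWA+PBS sample and almost the same in all MWA+2DG samples, with group means of 0.537 ± 0.255 and 19.3 ± 0.305 FPKM (n = 3) and a ratio of 35.9. The log2 fold change was 3.73 (SE 0.11, limma adjusted p = 7.98e-07), and it ranked 9 among the increases of all genes tested. Ly6g passed the filter only through MWA+2DG, so it had to be higher, and these values only describe the size of the gap. Since its MWA+PBS values are close to 0, the ratio depends on small FPKM values whose read counts are unknown. With a pseudocount of 0.1 in place of 1 the log2 fold change was 5.00 (SE 0.24).

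Most neutrophil genes rose as Ly6g did, and a few fell. Of 19 tested, 14 rose and 4 fell, with a median log2 fold change of 2.51. Of these, Retnlg, Mmp9, Cxcr2, Chil1 and Wfdc21 had a mean under 1 FPKM with PBS and passed the filter only through MWA+2DG, so 5 of the 14 had to be higher. S100a9, a calcium-binding protein abundant in neutrophils, went from 17.35 to 29.34 FPKM with PBS to 558.79 to 648.42 with 2DG (4.65, adjusted p = 1.79e-06), and its partner S100a8 rose by 4.50. The granule proteases and peroxidase of early neutrophil precursors fell, with Mpo (myeloperoxidase) down from 200.52 to 241.15 FPKM with PBS to 32.68 to 34.32 with 2DG (-2.72, adjusted p = 5.92e-07) and Prtn3 (proteinase 3) at -2.23. Il1b, which is not one of these precursor genes, also fell (-0.46), and Csf3r was not called (0.19). No gene of the list was at 0 in all samples. The part of neutrophil RNA in the Ly6g value was not tested.

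**Figure D3:**
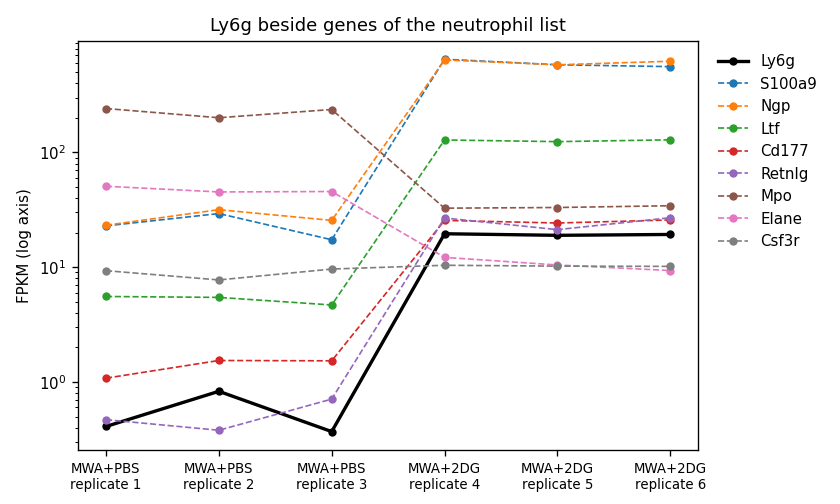
FPKM on a log axis of Ly6g (black) and 8 genes of the neutrophil list in the 6 samples, where lines join the samples only to guide the eye. Ly6g rose from under 1 FPKM to between 18.96 and 19.57, alongside S100a9, while Mpo went the other way; genes in the plot that are not named in the text were picked after their values were seen.

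Ly6a, Ly6c2 and Ly6e are not restricted to T cells, and Ly6c2 is abundant in inflammatory monocytes, so the lists of the other spleen cells are given beside them. Of 12 monocyte genes tested, 2 rose and 9 fell (median -1.24), with Csf1r, the receptor for the macrophage growth factor, at -2.57 and Chil3, a chitinase-like protein that neutrophil precursors also make, at 2.65. All 15 red pulp macrophage genes fell (median -2.60), with Hmox1, which degrades haem, at -2.99 and C1qb, a complement subunit, at -2.78. Of 8 plasma cell genes tested, 2 rose and 4 fell (median -0.17), and of 8 plasmacytoid dendritic cell genes 2 rose and 4 fell (median -0.32). Of 4 natural killer cell genes 0 rose and 2 fell (median -0.25), of 8 CD4 T cell genes 0 rose and 2 fell (median 0.14), and of 2 endothelial genes Stab2 fell, at -1.70. Some of these genes had a mean under 1 FPKM in 1 group and passed only through the other. Stab2 and 2 of the 4 natural killer cell genes did so through MWA+PBS, and could only be lower. The part of these cells in the Ly6a, Ly6c2 and Ly6e values was not tested.

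FPKM is a share of the whole library, so the members were also set against the T cell transcripts of the same sample. Per 100 FPKM of Cd8a, Ly6a went from 9.59 ± 1.11 to 12.2 ± 0.907 (n = 3), without overlap. Ly6e went from 30.2 ± 1.12 to 15.0 ± 0.583, also without overlap. Ly6c2 turned its direction, from 28.0 ± 0.762 in MWA+PBS to 23.6 ± 1.42 in MWA+2DG, with 27.4 the lowest MWA+PBS value and 24.8 the highest MWA+2DG value. For each of the 3 genes the two-sided exact permutation test gave p = 0.1, which is as low as 3 samples against 3 can go. In the fit over all genes scaled to Cd8a, a scaling chosen after seeing the data, the log2 fold change of Ly6c2 was -0.25 (limma adjusted p = 0.00463), that of Ly6e was -1.004 (adjusted p = 4.24e-06) and that of Ly6g was 3.07 (adjusted p = 4.56e-07). Scaled to the mean level of the 24 T lineage genes, Ly6c2 changed by 0.08 (adjusted p = 0.25). These scalings also moved the median of all genes tested, to -0.61 with Cd8a and to -0.28 with the T lineage genes, from 0.05.

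**Figure D4:**
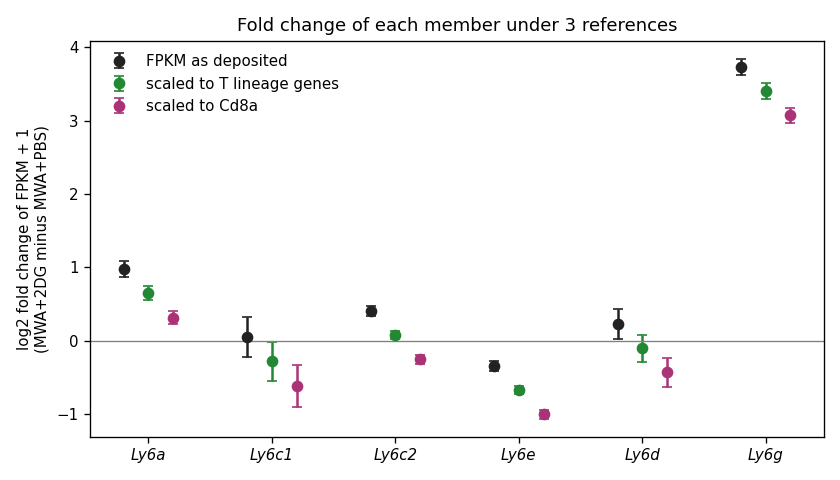
Log2 fold change of FPKM + 1, MWA+2DG minus MWA+PBS, for each member from the deposited FPKM (black), after scaling to 24 T lineage genes (green) and after scaling to Cd8a (purple), with bars of ± SE from limma. Ly6a and Ly6g stayed above 0 and Ly6e below 0 under each of the 3, whereas Ly6c2 went from 0.41 to 0.08 and -0.25.

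The make-up of the family signal changed. In MWA+PBS the order of levels was Ly6e, Ly6c2, Ly6c1, Ly6a, Ly6d and Ly6g in all 3 samples, although the ranges of Ly6e and Ly6c2 over the samples overlapped, as did those of Ly6c2 and Ly6c1 and those of Ly6d and Ly6g. In MWA+2DG the ranges of Ly6c2, Ly6e, Ly6a, Ly6g and Ly6d followed in that order without overlap, and Ly6c1 lay in a different place in each sample. Ly6e made up 31.5% of the summed member FPKM on average with PBS and 20.0% with 2DG. The share of Ly6a went from 10.0% to 16.2% and that of Ly6g from 0.240% to 7.04%. The sum itself was 227.26, 228.49 and 208.67 FPKM for MWA+PBS and 310.79, 262.84 and 253.96 for MWA+2DG, so the groups did not overlap (exact permutation p = 0.1, the smallest possible). Scaled to the T lineage genes, the log2 difference of the sum went from 0.31 to -0.02 (exact permutation p = 0.9).

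Profiles most like each member were sought by the Euclidean distance between centred log2(FPKM + 1) values over the 6 samples. All profiles come from the same 6 libraries and carry the same contrast, so the distances are descriptions. For Ly6g the nearest were Slfn4, a Schlafen family gene, at 0.202, Cd177, a neutrophil surface protein of the wider Ly6 family, at 0.452, and Lcn2, the iron-carrier binding protein lipocalin 2, at 0.565. For Ly6a they were Trbv16, a T cell receptor beta variable segment, at 0.122, Gbp10, a guanylate-binding protein, at 0.126 and Mx1, an antiviral GTPase, at 0.134. For Ly6c2 they were Snx4, Ly9 and Lsp1, all within 0.0639. For Ly6e they were Taldo1, Sumo3 and Pa2g4, all within 0.0794. Ly6c1 had its nearest neighbour at 0.216, the mitochondrial glycine tRNA mt-Tg, and Ly6d at 0.182, the RNA gene Gm24060.

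Of 38 further Ly6 and uPAR family genes listed, 17 had an identifier in the tables, and 12 of these were under 1 FPKM in every sample. The other 5 passed the filter, of which 3 rose and 0 fell, beside 22.3% and 17.1% of all genes tested. Scaled to the T lineage genes, 1 rose and 0 fell, where 5.59% of all genes tested rose and 56.1% fell. Scaled to Cd8a, 1 rose and 3 fell, where 1.48% of all genes rose and 86.4% fell. Cd177 went from 1.08, 1.54 and 1.53 FPKM to 25.58, 24.27 and 25.80 (3.47, limma adjusted p = 3.83e-07). Lypd6b rose by 0.42 (adjusted p = 0.00993) and Plaur, the urokinase receptor, by 0.35 (adjusted p = 0.035), and both were called lower, at -0.24 and -0.32, when scaled to Cd8a. Lypd8 read 0.05, 7.40 and 0.00 FPKM in the MWA+PBS samples and 7.10, 6.07 and 7.18 in the MWA+2DG samples (1.91, adjusted p = 0.0786), with MWA+PBS replicate 2 at the level of the MWA+2DG samples. Ly6g5b changed by 0.13 (adjusted p = 0.496), turned to -0.20 when scaled to the T lineage genes and was called lower, at -0.53, when scaled to Cd8a.

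Genes that build the GPI anchor, on which Ly6 proteins depend for their place on the membrane, were taken as a pathway. Of 28 tested, 16 rose and 0 fell (median 0.28), beside 22.3% and 17.1% of all genes tested (median 0.05). The largest increases were Mppe1, which removes a side group from the anchor after transfer, at 0.66, and Piga, the catalytic subunit of the first enzyme of anchor synthesis, at 0.62. Scaled to the T lineage genes, 4 rose and 8 fell (median -0.05), where 5.59% of all genes tested rose and 56.1% fell (median -0.28). Scaled to Cd8a, 0 rose and 20 fell (median -0.38), beside 1.48% and 86.4% of all genes, with Piga at -0.04 and Mppe1 at 0.0016. Of 14 other GPI-anchored leukocyte proteins tested, 6 rose and 2 fell (median 0.22). Scaled to the T lineage genes 3 rose and 6 fell (median -0.11), again beside 5.59% and 56.1% of all genes. With Cd8a scaling 1 rose and 10 fell (median -0.44), beside 1.48% and 86.4%. Art2b, an ADP-ribosyltransferase of T cells, rose by 1.26, Cd52 by 0.73 and Thy1, the T cell antigen Thy-1, by 0.44, while Cd14, a monocyte and macrophage receptor, changed by -2.13 and Prnp, the prion protein, by -1.09. Prnp had a mean under 1 FPKM with 2DG and passed the filter only through MWA+PBS, so it could only be lower. Thy1 turned to -0.22 when scaled to Cd8a.

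Interferon-induced genes were taken because Ly6a and Ly6e both respond to interferon. Of 44 tested, 36 rose and 1 fell (median 0.53), beside 22.3% and 17.1% of all genes tested. The largest increases were Iigp1, an immunity-related GTPase, at 1.25 and Ifit3, an antiviral effector, at 1.22. Ifitm3, a transmembrane antiviral protein, fell by 0.44. On the deposited FPKM, Ly6a was on the side of most of the list and Ly6e was not. Scaled to the T lineage genes, 22 rose and 6 fell (median 0.20), beside 5.59% and 56.1% of all genes tested. Scaled to Cd8a, 9 rose and 19 fell (median -0.13), beside 1.48% higher and 86.4% lower over all genes tested (median -0.61). With that scaling Ly6e, at -1.004, was on the larger side of the list and Ly6a, at 0.32, was not. Of 24 genes of memory and naive CD8+ T cells, 15 rose and 3 fell (median 0.43), beside 22.3% and 17.1% of all genes tested. The chemokine receptor Cxcr3 was at 1.53 and the NK receptor subunit Klrd1 at 1.07, while the adhesion receptor Cd44 was at -0.39 and granzyme B, Gzmb, at -0.31. Scaled to Cd8a, 4 of the 24 rose and 13 fell, beside 1.48% and 86.4% of all genes tested.

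**Figure D5:**
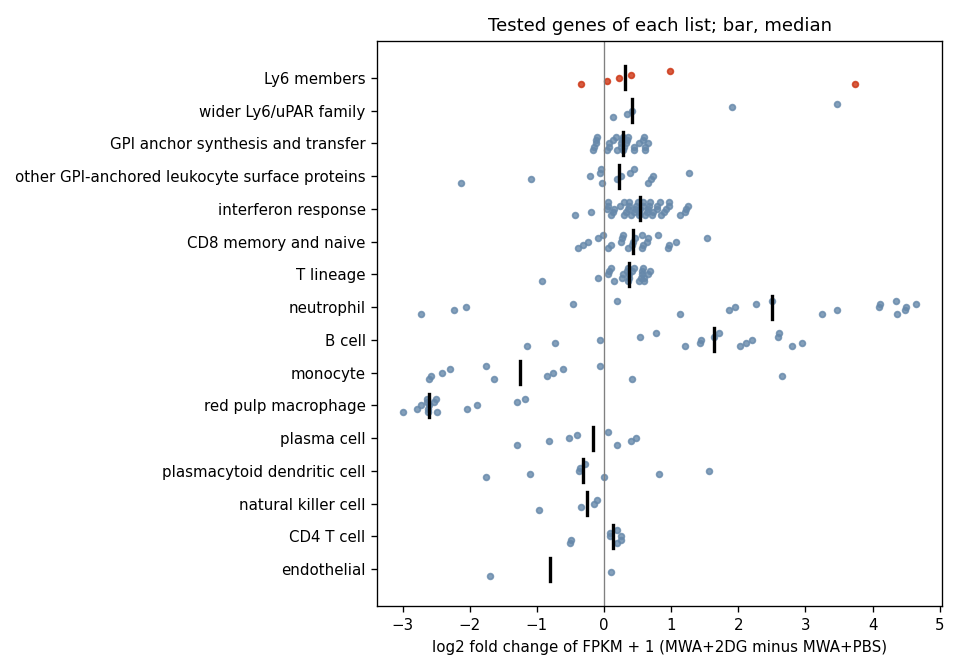
Log2 fold change of FPKM + 1, MWA+2DG minus MWA+PBS, of every tested gene of each list, 1 point a gene, with a black bar at the list's median; the members are in red. The members spread from -0.34 to 3.73 around a median of 0.32, between the red pulp macrophage list at -2.60 and the neutrophil list at 2.51.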

How the data were processed

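RNA from splenic CD8+ T cells was sequenced as poly(A), strand-marked, paired libraries with molecular identifiers. The authors mapped reads with HISAT2, assembled them with StringTie and deposited FPKM per gene with ballgown (at most 2 decimals). The submitters' processing notes name cutadapt 1.9, HISAT2 2.0.4, UMI-tools, StringTie 1.3.4d and mm9. The files hold no read counts, which leaves depth unknown and counting error without an interval. FPKM is a share of the library, so an abundant transcript lowers the others.

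Here log2(FPKM + 1) of 12444 genes with a mean FPKM of at least 1 was fitted in limma 3.58.1 (R 4.3.3, eBayes with a trend), MWA+2DG minus MWA+PBS. Symbols came from GENCODE M21 (28689 of 28773 identifiers). Of the 16 gene lists, 23 symbols had no identifier and were not analysed here. The members and the lists were chosen with earlier results of these data known. Genes named were the members, tested Ly6 and uPAR relatives, Cd8a, Cd8b1, Cd3e and Thy1, up to 2 called genes a direction from each list, and the 3 nearest profiles of each member. Retnlg, Mmp9, Cxcr2, Chil1, Wfdc21, Il1b, Csf3r and Pecam1 were named after their values were seen. Exons came from GENCODE M21 on GRCm38. File coordinates were not used. Alternatives covered the pseudocount, filters, scalings, weights and leaving out each sample.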

Additional observations from a re-analysis of the deposited data

How the results depend on the processing

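Ly6a, Ly6e and Ly6g kept their direction and their call under all 15 alternatives. Leaving out each sample in turn gave log2 fold changes between 0.88 and 1.08 for Ly6a, 0.37 and 0.47 for Ly6c2, -0.39 and -0.30 for Ly6e, 3.66 and 3.87 for Ly6g, -0.23 and 0.40 for Ly6c1, and 0.03 and 0.44 for Ly6d. Ly6c1 reversed without MWA+2DG replicate 4 (-0.23) or 5 (-0.02), with median ratio scaling (-0.0014), with T lineage scaling (-0.28) and with Cd8a scaling (-0.61). Ly6d reversed with T lineage scaling (-0.10), Cd8a scaling (-0.43) and array weights (-0.00048), and could not be fitted at a mean FPKM of at least 5. Ly6c2 was no longer called with T lineage scaling (0.0787) and reversed with Cd8a scaling (-0.25). Under Cd8a scaling 2 members were called lower, beside 86.4% of all genes tested. For these reversals the cause was not tested. The genes called at an adjusted p under 0.05 numbered 4907, 56.5% of them higher, and 3669 to 5152 without 1 sample, 2951 of 7313 tested at a mean FPKM of at least 5, 7683 (9.06% higher) with T lineage scaling and 10937 (1.68% higher) with Cd8a scaling. With a log2 fold change beyond 0.25 at P under 0.05 (the study's methods give 0.25 for a log fold change without its base), 4752 were called, and 4509 to 5030 without 1 sample, 2562 at the higher FPKM minimum and 10733 with Cd8a scaling. Without 1 sample, 3 members were higher and 1 lower each time. The Ly6c1 percent of its pair differed by between -10.2 and 0.39 points without 1 sample, reversing to 0.39 without MWA+2DG replicate 6. The log2 sum of the members differed by between 0.22 and 0.37 without 1 sample and by -0.0175 with T lineage scaling. No paired analysis was possible because the groups share no replicate number.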

Other observations

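The B cell list held genes of both directions. Of the B cell list, Ighd, the IgD heavy chain, went from 1.63 to 1.76 FPKM with PBS to 17.90 to 17.96 with 2DG (2.80, limma adjusted p = 1.87e-07), while Bank1, a B cell adaptor, fell by 0.73 (adjusted p = 0.000204). Of the plasma cell list, Jchain, which joins IgM and IgA subunits, fell by 1.296 (adjusted p = 6.66e-06). Of the plasmacytoid dendritic cell list, the Ets family factor Spib went from 0.59 to 0.75 FPKM with PBS to 3.63 to 4.39 with 2DG, and Cox6a2, a cytochrome c oxidase subunit, from 3.84 to 5.09 down to 0.39 to 0.83. Spib and Cox6a2 each passed the filter only through the group where it was high. Trat1, a T cell receptor associated adaptor, fell by 0.93 (adjusted p = 0.000182) while 18 of the 24 T lineage genes rose.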
